A study of Mus musculus with 15 samples.

Results

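Transcript levels in mouse mammary epithelial cells without p53 (p53-) were set against those in wild type cells (WT). The arrays were chosen by their titles, 3 labelled p53- and 3 labelled WT, which made 6 of the 15 arrays of the series. Of 35556 probe sets, those with 1 gene symbol gave 19938 genes, each represented by its brightest probe set over all 15 arrays. The cells came from mammary glands of 8-week-old female mice, were sub-cultured in medium with horse serum, EGF, insulin, cholera toxin and hydrocortisone, and were harvested while proliferating. In p53- cells the p53 gene had been deleted by Cre recombinase brought in with an adenovirus, while Rb and Myc were labelled wild type. In p53- Rb- cells, whose 3 arrays are given beside the others, both p53 and Rb had been deleted in the same way and Myc was labelled wild type. WT cells were labelled wild type for p53, Rb and Myc. The remaining arrays, 3 labelled p53- Myc+ and 3 labelled p53- Rb- Myc+, are not described here. They entered the choice of probe sets and the estimate of spread. Below, arrays or cells without p53 are the p53- and p53- Rb- groups only, and groups are compared among those and WT. Neither the mouse strain nor the alleles that Cre cut are named in the labels. A control virus in WT cultures is not mentioned, so an effect of the adenovirus and one of p53 loss cannot be told apart. Separate animals or cultures behind the arrays of a group are not mentioned either. The p-values thus rest on a spread within groups that is pooled over all 15 arrays and may be technical.

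p53 is a transcription factor that DNA damage and oncogenic stress stabilise, and that is held low in unstressed cells by the ubiquitin ligase Mdm2, itself a p53 target. It activates genes for cell cycle arrest, cell death, DNA repair and metabolism by binding a response element in or near them. Through its target p21 it also keeps the DREAM complex of pocket proteins on promoters of mitotic and replication genes, at letters called the cell cycle homology region (CHR) and at E2F sites, which represses those genes. In mammary epithelium p53 limits the proliferation of cultured cells, and its loss is frequent in breast cancer.

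Values below are probe set intensities on a linear scale, and changes are differences of log2(intensity + 16), p53- minus WT, with their standard error. A gene rose or fell when its Benjamini-Hochberg adjusted p from limma's moderated test lay under 0.05 over all 19938 genes. Median intensity ran from 49.64 to 54.9 in p53- arrays, from 43 to 45.63 in p53- Rb- arrays and from 41.28 to 47.08 in WT arrays, and the median change of all genes was 0.12. With each array centred on its median the median change was -0.05, so a list is read here against the median of all genes. Correlations across genes, given as a description, were 0.971 to 0.984 among p53- arrays, 0.904 to 0.952 between p53- and WT arrays and 0.963 to 0.975 among WT arrays. p53- replicate 2 lay nearest to WT (0.934 to 0.952) and p53- replicate 3 farthest (0.904 to 0.921). In all, 3842 genes (19.3%) rose and 1935 (9.71%) fell, 811 and 325 of them at least 2-fold. Centring turned this split round, to 2311 that rose and 3248 that fell, while quantile normalization gave 2979 and 2791. Without p53- replicate 3 the counts were 2381 and 1086. Counts of list members are read against the shares of all genes, 19.3% that rose and 9.71% that fell. In p53- Rb- cells those shares were 10.8% and 3.75%.

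The p53 gene itself, Trp53, had no probe set of its own symbol alone and was not analysed here, so its deletion could not be checked on these arrays, and the same held for Cdkn1a and Bax. Rb1, which encodes the pocket protein Rb, had 146.9, 180.6 and 157.0 in p53- arrays, 52.7, 55.3 and 64.2 in p53- Rb- arrays, and 86.5, 88.1 and 103.8 in WT arrays. The p53- Rb- arrays thus lay below both other groups, in the direction of their label, and Rb1 rose in p53- cells (0.71 ± 0.16, adjusted p = 0.00286). Myc, the growth-promoting transcription factor gene, did not pass (0.06 ± 0.17, adjusted p = 0.817).

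Genes that p53 is known to activate were lower in p53- cells in most cases. Over 4 lists of targets, 39 of 73 measured genes fell (53.4%, against 9.71% of all genes) and 6 rose (8.2%, against 19.3%), with a median change of -0.52. In p53- Rb- cells, which share the WT arrays, 17 of the 73 fell and 2 rose, against 3.75% and 10.8% of all genes, with a median of -0.20. Among 16 regulators of p53 and its feedback genes, 5 rose and 4 fell in p53- cells (4 and 5 in p53- Rb- cells). That count was 3 and 6 after centring, which also moved the list's median from 0.14 to -0.03, and the regulators that rose were 3 without p53- replicate 1, p53- replicate 3 or WT replicate 2.

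Mdm2, the ligase that degrades p53, had 381.6, 452.7 and 420.6 in p53- arrays, 285.1, 346.7 and 247.0 in p53- Rb- arrays, and 559.4, 724.2 and 921.0 in WT arrays. Every p53- array lay below every WT array, WT replicates spreading more widely, and the change was -0.76 ± 0.19 (adjusted p = 0.00408). Ccng1, a cyclin G gene that recruits a phosphatase to Mdm2, had 568.9, 636.8 and 648.8 in p53- arrays against 1093, 1140 and 1210 in WT arrays. Its groups were far apart for their spread (-0.88 ± 0.16, adjusted p = 0.000372), and its p53- Rb- arrays (515.5 to 618.5) overlapped the p53- ones. Trp53inp2, an autophagy gene related to a p53-induced one, fell by 1.78 (257.4 ± 72.5 in p53- arrays and 910.2 ± 143.9 in WT arrays, SD, n = 3 each). Trp63, the p53 relative that marks basal epithelial cells, fell by 0.68, a call that was lost without p53- replicate 1. In the other direction, Cdkn2a, whose products p16 and ARF restrain Cdk4 and Mdm2, had 151.5, 169.0 and 148.4 in p53- arrays, 164.9, 153.1 and 189.1 in p53- Rb- arrays, and 83.4, 59.8 and 47 in WT arrays. Both groups without p53 were above every WT array, and the change in p53- cells was 1.14 ± 0.19 (adjusted p = 0.000126). Usp7, which removes ubiquitin from Mdm2 and p53, rose by 0.80. Mdm4, an Mdm2 partner that blocks p53, did not pass (0.29, adjusted p = 0.279).

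The list of arrest and growth control targets had 10 of 18 members that fell and 2 that rose (8 and 1 in p53- Rb- cells). Zmat3, an RNA-binding protein that regulates splicing, had 105.3, 152.9 and 78.4 in p53- arrays, 141.8, 127.9 and 171.1 in p53- Rb- arrays, and 390.1, 421.1 and 449.7 in WT arrays. No array without p53 came near the WT values, and the change was -1.81 ± 0.20 (adjusted p = 2.18e-06). Psrc1, a microtubule-binding protein gene, had 49.1, 72.9 and 71.5 in p53- arrays, 118.2, 130.5 and 159.1 in p53- Rb- arrays, and 221.3, 263.9 and 267.8 in WT arrays, so that the p53- Rb- arrays lay between the others without touching either. Its change in p53- cells was -1.74 ± 0.16 (adjusted p = 2.04e-07). Ddit4l, an inhibitor of mTORC1, fell by 1.58, and Phlda3, which competes with Akt for membrane lipids, fell by 1.39. Mxd4, a Max partner that opposes Myc, fell by 1.07, and Btg2, an antiproliferative deadenylase cofactor, fell by 1.02. Gadd45a, a stress-induced arrest gene, went against the list with 465.1, 325.8 and 524.6 in p53- arrays and 169.4, 225.7 and 286.9 in WT arrays. It rose by 0.90 ± 0.21 (adjusted p = 0.00331). Ptprv, a phosphatase gene, rose by 0.72, a call that was lost after centring and without p53- replicate 3 or WT replicate 3, and Plk2 (0.40), Ndrg1 (-0.08) and the 14-3-3 gene Sfn (-0.29) did not pass.

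Among cell death targets, 9 of 16 fell and 1 rose (2 and 0 in p53- Rb- cells). Eda2r, a death receptor of the TNF receptor family, had 20.2, 13.6 and 21.3 in p53- arrays, 20.8, 26.7 and 16.3 in p53- Rb- arrays, and 53.2, 63.5 and 63.9 in WT arrays. It was dim without p53 in all 6 arrays of both groups, and fell by 1.15 ± 0.17 in p53- cells (adjusted p = 3.98e-05), a size that the added constant makes smaller. Aen, a nuclease active in apoptosis, fell by 0.78, Ninj1, which ruptures the membrane of dying cells, fell by 0.99, Ei24 fell by 0.67, and Siva1, an apoptosis adaptor, fell by 0.61, a call that was lost without p53- replicate 3. Pmaip1, which encodes the BH3 protein Noxa, had 175.9, 160.6 and 222.2 in p53- arrays, 81.3, 88.1 and 35.4 in p53- Rb- arrays, and 43.1, 62 and 66 in WT arrays. It was the list's exception, 1.47 ± 0.22 higher in p53- cells (adjusted p = 4.54e-05), while its p53- Rb- arrays overlapped WT. Perp, a desmosome protein gene of epithelia, did not pass (-0.04).

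Of 18 repair and metabolism targets, 9 fell and 1 rose (6 and 1 in p53- Rb- cells). Dcxr, which reduces dicarbonyls and xylulose, had 97.1, 121.4 and 67.8 in p53- arrays, 154.4, 139.0 and 192.9 in p53- Rb- arrays, and 503.3, 490.4 and 454.6 in WT arrays. Ephx1, a microsomal epoxide hydrolase gene, had 61.8, 68.4 and 68.2 in p53- arrays, 181.6, 177.4 and 201.1 in p53- Rb- arrays, and 342.7, 262.3 and 338.8 in WT arrays. For both, the 3 groups did not overlap and p53- arrays were lowest, with changes in p53- cells of -2.19 ± 0.18 for Dcxr (adjusted p = 3.07e-08) and -2.0 ± 0.16 for Ephx1 (adjusted p = 1.73e-08). Ak1, an adenylate kinase gene, had 95.9, 115.7 and 82.8 in p53- arrays but 404.4, 387.0 and 562.6 in p53- Rb- arrays, beside 361.2, 422.4 and 338.9 in WT arrays. It fell by 1.78 in p53- cells, and its p53- Rb- arrays overlapped WT. Mgmt, which repairs alkylated guanine, fell by 1.31. Rrm2b, the p53-inducible small subunit of ribonucleotide reductase, rose by 0.88 ± 0.16 (70.6, 69.7 and 76.3 in p53- arrays against 35.6, 33.4 and 27.6 in WT arrays, adjusted p = 0.000324).

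The remaining targets, a mixed list of 22, had 11 members that fell and 2 that rose (1 and 0 in p53- Rb- cells). The number that fell was 7 without p53- replicate 1 and 6 without p53- replicate 3. Sulf2, an extracellular sulfatase gene, fell by 1.30, Abhd4, a lipase gene linked to anoikis, fell by 1.02, and Sdc1, the epithelial heparan sulfate proteoglycan syndecan-1, fell by 0.75. Rps27l, a paralog of a small ribosomal subunit protein that also binds Mdm2, had 509.1, 552.3 and 543.6 in p53- arrays, 609.3, 501.4 and 794.3 in p53- Rb- arrays, and 1074, 1404 and 980.1 in WT arrays. Arrays without p53 all lay below WT arrays, and the change in p53- cells was -1.07 ± 0.20 (adjusted p = 0.000422). Kitl, the ligand of the receptor Kit, was opposite, with 245.1, 154.8 and 196.0 in p53- arrays, 68.5, 101.1 and 35.4 in p53- Rb- arrays, and 40.3, 56.1 and 49.5 in WT arrays. It rose by 1.72 ± 0.24 in p53- cells (adjusted p = 2.17e-05). Rap2b, a small GTPase gene, rose by 0.71.

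**Figure D1:**
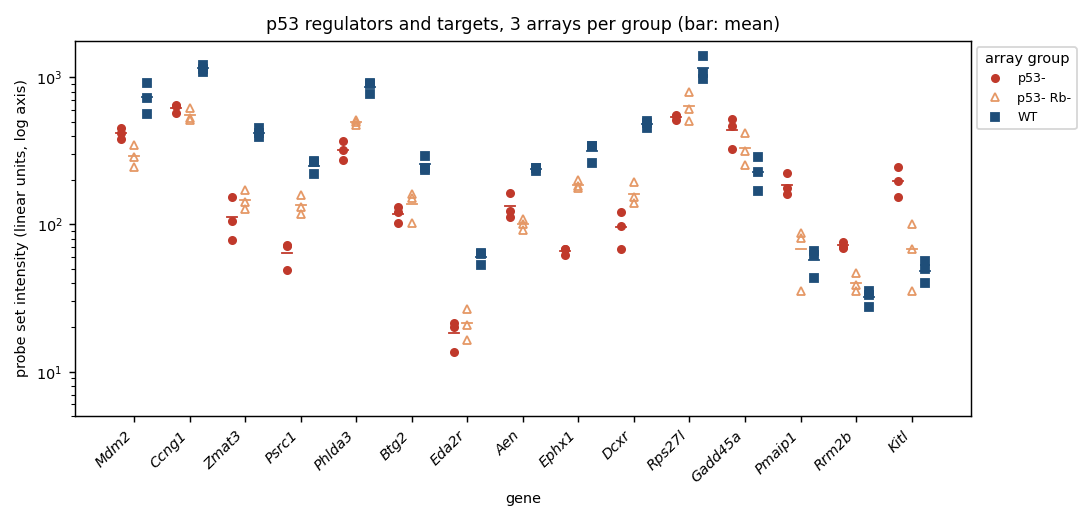
Probe set intensity (log axis) of 15 p53 regulators and targets, with 1 point per array, 3 arrays each for p53-, p53- Rb- and WT, and a bar at each group's mean. In the 11 genes from Mdm2 to Rps27l the p53- arrays lie below the WT arrays, and in Gadd45a, Pmaip1, Rrm2b and Kitl they lie above.

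The p53 response element, a repeat of a short motif that p53 binds as a tetramer, was searched by its name's consensus on both strands of RefSeq promoters (GRCm38.p6, 250 bases before to 50 after the start), with up to 2 mismatches and the core letters kept. It was present in 5 of 76 genes of the p53 lists with a promoter (6.6%: Ccng1, Cd80, Rps27l, Trp73 and Zfp365), against 59 of 15563 genes overall (0.38%). Of those 59, 20.3% rose and 13.6% fell, against 19.3% and 9.71% of all genes. Of the 5, Ccng1 and Rps27l fell, Trp73, a p53 relative, rose (0.49, adjusted p = 0.0267, lost under 7 of 15 alternatives), and Cd80 and Zfp365 did not pass. The promoters of the pair that fell are shown as examples picked by hand. They thus cannot tell whether the element goes with a fall. Both carry an element with 1 mismatch, in capitals. It begins 117 bases before the start in Rps27l and 195 bases before it in Ccng1, counting the start as 0. The stretch runs from 220 to 71 bases before the start, at chr9:66946193-66946342 on the plus strand for Rps27l and at chr11:40755357-40755506 on the minus strand for Ccng1.
Rps27l: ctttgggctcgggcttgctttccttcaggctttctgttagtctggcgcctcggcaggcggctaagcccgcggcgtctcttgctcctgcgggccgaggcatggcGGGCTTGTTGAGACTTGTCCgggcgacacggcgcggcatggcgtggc
Ccng1: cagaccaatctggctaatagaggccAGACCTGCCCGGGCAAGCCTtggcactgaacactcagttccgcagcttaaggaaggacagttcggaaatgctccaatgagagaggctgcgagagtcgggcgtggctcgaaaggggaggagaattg

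Mitotic genes rose nearly as a body. Over 5 lists, 88 of 109 measured genes rose (80.7%, against 19.3% of all genes) and 1 fell (0.9%, against 9.71%), with a median change of 0.91. Against the same WT arrays, 80 rose and 0 fell in p53- Rb- cells. With each array centred, 72 rose and 1 fell in p53- cells, with a median of 0.74. Without centring, 47 of the genes rose at least 2-fold.

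Kinetochore proteins join chromosomes to spindle microtubules, and 24 of 32 of their genes rose (20 in p53- Rb- cells). Cenpe, the kinetochore motor, had 469.9, 440.6 and 551.9 in p53- arrays, 132.5, 199.5 and 80.4 in p53- Rb- arrays, and 65.8, 52.2 and 98.6 in WT arrays. Cenpf, a large coiled-coil protein of the outer kinetochore, had 343.2, 307.2 and 423.6 in p53- arrays, 127.6, 147.4 and 68.8 in p53- Rb- arrays, and 37.6, 29.6 and 90.9 in WT arrays. In both genes the p53- arrays stood clear of the rest and the p53- Rb- arrays overlapped WT, WT replicate 3 being the highest of its group. The changes in p53- cells were 2.54 ± 0.27 for Cenpe (adjusted p = 1.27e-06) and 2.54 ± 0.28 for Cenpf (adjusted p = 1.87e-06). Knl1, the scaffold for checkpoint proteins, had 221.2, 223.6 and 267.6 in p53- arrays against 43.8, 57.1 and 32 in WT arrays (2.09 ± 0.20, adjusted p = 3.66e-07), and Ndc80, the microtubule-binding subunit, rose by 1.63. Cenpm was the 1 mitotic gene that fell, with 139.2, 274.8 and 124.6 in p53- arrays and 307.1, 287.8 and 282.2 in WT arrays. Its p53- replicate 2 lay close to the WT arrays, and the call (-0.74 ± 0.25, adjusted p = 0.0317) was lost with 1 in place of 16 added and without any 1 array other than p53- replicate 2. Cenpa, the centromeric histone H3, did not pass (0.28, adjusted p = 0.191).

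Of 26 spindle checkpoint and mitotic kinase genes, 21 rose and 0 fell (23 and 0 in p53- Rb- cells). Fbxo5, which encodes the anaphase-promoting complex inhibitor Emi1, had 292.7, 266.1 and 283.5 in p53- arrays, 164.1, 211.8 and 171.6 in p53- Rb- arrays, and 79.3, 77.9 and 97.7 in WT arrays. The 3 groups were separate, with p53- Rb- between the others, and the change in p53- cells was 1.56 ± 0.15 (adjusted p = 3.95e-07). Bub1, a checkpoint kinase, rose by 1.75, Ttk, the kinase Mps1, by 1.57, Bub1b, which encodes BubR1, by 1.55, Mastl, the Greatwall kinase, by 1.62, and securin, Pttg1, by 1.68. Bub1b had 295.9, 325.4 and 303.7 in p53- arrays, 457.9, 446.1 and 438.4 in p53- Rb- arrays, and 114.7, 62.5 and 116.4 in WT arrays, so here the p53- Rb- arrays were highest. Ube2c, which ubiquitinates mitotic cyclins, did not pass (0.42, adjusted p = 0.0581), though all its p53- arrays (1738 to 2086) lay above all WT arrays (1373 to 1423).

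Mitotic cyclins and their transcription factors rose in 5 of 7 (6 in p53- Rb- cells). Ccna2, cyclin A2, had 782.0, 867.9 and 845.9 in p53- arrays, 719.4, 770.7 and 748.2 in p53- Rb- arrays, and 492.7, 417.5 and 414.0 in WT arrays. Cells without p53 were higher in every array, with a change in p53- cells of 0.89 ± 0.15 (adjusted p = 0.000127). Lin54, the DREAM subunit that binds the CHR, rose by 1.10. Foxm1, the factor that activates late mitotic genes, rose by 0.61, a call that was lost after centring and without WT replicate 2. Ccnb2 (0.31, adjusted p = 0.15) and Mybl2 (0.47, adjusted p = 0.0573) did not pass in p53- cells. The number that rose was 3 with the arrays centred or without WT replicate 2.

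Kinesins, spindle and cytokinesis genes rose in 24 of 27 (20 in p53- Rb- cells). Kif20b, a kinesin of the late spindle, had 285.7, 256.8 and 347.7 in p53- arrays, 64.2, 96.7 and 57.6 in p53- Rb- arrays, and 56.1, 44.2 and 65 in WT arrays. Its p53- arrays stood alone, the other groups overlapping, and the change was 2.14 ± 0.22 (adjusted p = 6.7e-07). Hmmr, a spindle assembly factor, rose by 1.64, Prc1, the midzone microtubule bundler, by 1.51, Nusap1 by 1.52, Kif18a, a motor that aligns chromosomes, by 1.74, and Aspm, a spindle pole protein, by 1.46. Numa1, which anchors the spindle, did not pass (-0.01).

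Condensin, cohesin and mitotic chromatin genes had a list median of 1.17, with 14 of 17 that rose (11 in p53- Rb- cells). Smc4, a condensin ATPase, had 785.8, 647.4 and 853.2 in p53- arrays, 264.6, 323.7 and 191.4 in p53- Rb- arrays, and 113.2, 125.3 and 138.4 in WT arrays. No array of 1 group reached another group's range, and the change in p53- cells was 2.45 ± 0.19 (adjusted p = 1.02e-08). Mki67, the proliferation marker Ki-67 that coats mitotic chromosomes, had 582.5, 595.2 and 670.2 in p53- arrays, 209.1, 337.4 and 177.5 in p53- Rb- arrays, and 126.1, 157.2 and 169.3 in WT arrays (1.93 ± 0.23, adjusted p = 4.83e-06). It was also above WT in all 3 p53- Rb- arrays, but did not pass there (0.59, adjusted p = 0.0935). Smc2, the condensin partner of Smc4, rose by 1.89, Ncapg by 1.96 and the cohesin gene Smc3 by 1.69, while Ncapd3 did not pass (0.17).

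The CHR was read as TTTGAA, or with G replaced by A as TTTAAA. These letters stood within 50 bases of the start, on either strand, in 49 of 92 mitotic genes with a promoter (53.3%), against 1199 of 15563 genes overall (7.7%). The CCAAT box was present anywhere in the 300-base window in 66.3% of the mitotic genes and 41.7% of all genes. The CHR letters were also held by 13.5% of replication genes and 4.8% of p53 targets. Among mitotic genes, 43 of the 49 with the letters in that window rose (87.8%) and 32 of the 43 without them did (74.4%). Over the whole 300-base window the shares were alike, with 48 of 59 that rose (81.4%) where the letters were present and 27 of 33 (81.8%) where they were not. Among genes outside the lists, 19.2% of those with CHR letters near the start rose and 18.7% of those without, while 5.5% and 9.7% fell. The window near the start was chosen after the sequences had been seen. Promoters of Fbxo5, Cenpe and Cenpf are shown because these genes had among the smallest p of mitotic genes that hold both kinds of letters. All of them rose at least 2-fold, which follows in part from that choice. Of all mitotic genes with a promoter, 84.6% of those with both kinds rose and 79.2% of the others. Outside the lists these shares were 19.2% and 18.7%. Capitals mark CHR letters and the CCAAT box on either strand, the box being spelled ATTGG where it lies on the reverse strand, and no capitals overlap. Each stretch runs from 100 bases before the start to 49 after it, at chr10:5805416-5805565 on the minus strand for Fbxo5, chr3:135212463-135212612 on the plus strand for Cenpe and chr1:189688037-189688186 on the minus strand for Cenpf. The CHR letters begin 3 and 12 bases after the start in Fbxo5, 14 after it in Cenpe and 2 after it in Cenpf.
Fbxo5: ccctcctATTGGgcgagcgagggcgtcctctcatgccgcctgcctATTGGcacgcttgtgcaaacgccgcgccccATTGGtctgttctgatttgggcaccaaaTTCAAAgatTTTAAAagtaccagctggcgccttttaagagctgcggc
Cenpe: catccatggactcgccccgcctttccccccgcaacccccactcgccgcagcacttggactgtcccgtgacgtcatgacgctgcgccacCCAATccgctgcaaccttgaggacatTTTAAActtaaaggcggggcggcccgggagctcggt
Cenpf: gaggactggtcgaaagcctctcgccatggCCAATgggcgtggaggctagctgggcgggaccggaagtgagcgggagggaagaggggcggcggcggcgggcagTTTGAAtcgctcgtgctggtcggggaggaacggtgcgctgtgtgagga

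Replication genes rose in 34 of 62 (54.8%, against 19.3% of all genes) and none fell in the main comparison, with a median change of 0.51. Of the same genes, 42 rose and 0 fell in p53- Rb- cells. Origin and helicase genes rose in 18 of 27 (19 in p53- Rb- cells), and replication fork and nucleotide supply genes in 16 of 35 (23 in p53- Rb- cells). After centring the fork genes were 10 that rose and 2 that fell, and without p53- replicate 2 they included 3 that fell. Orc6, an origin recognition subunit, had 498.7, 383.6 and 592.1 in p53- arrays, 437.7, 546.5 and 332.5 in p53- Rb- arrays, and 135.6, 183.2 and 227.4 in WT arrays. Both groups without p53 overlapped each other above the WT arrays (1.36 ± 0.20 in p53- cells, adjusted p = 4.54e-05). Dbf4 and Cdc7, the subunits of the kinase that fires origins, rose by 1.12 and 1.09, and Mcm8, a helicase subunit gene used in recombination, by 0.81. Hells, a chromatin remodeller of S phase, had 379.3, 333.8 and 438.7 in p53- arrays, 96.2, 126.6 and 59.8 in p53- Rb- arrays, and 63.2, 83.3 and 101.0 in WT arrays. Only the p53- arrays were high, and the change was 2.03 ± 0.21 (adjusted p = 7.15e-07). Pola1, the catalytic subunit of the primase polymerase, rose by 1.61, and Rfc1, the large clamp loader subunit, by 1.05. Mcm7 (-0.04) and Mcm2 (0.30), subunits of the main helicase, did not pass. Rrm2, the S-phase subunit of ribonucleotide reductase, did not pass either (-0.56, adjusted p = 0.125), since p53- replicate 2 (1676) was above the WT arrays (1246 to 1416) and p53- replicates 1 and 3 (696.6 and 622.9) were below them.

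The E2F letters TTTCGCGC, TTTGGCGC or TTCCCGCC, on either strand, were in the promoters of 23 of 52 replication genes (44.2%), 11 of 92 mitotic genes and 4.7% of all. Outside the lists, 25.2% of genes with these letters rose, against 18.5% of genes without, and within 50 bases of the start the shares were 29.6% and 18.6%. Cdc7 and Mcm8 are shown because they had among the smallest p of replication genes with such letters within 50 bases of the start. Both rose, which follows in part from that choice. The letters are in capitals on the reverse strand, from 36 bases before the start in Cdc7 and 39 after it in Mcm8. The stretches span chr5:106964461-106964610 for Cdc7 and chr2:132816041-132816190 for Mcm8, both on the plus strand and from 100 bases before to 49 after the start.
Cdc7: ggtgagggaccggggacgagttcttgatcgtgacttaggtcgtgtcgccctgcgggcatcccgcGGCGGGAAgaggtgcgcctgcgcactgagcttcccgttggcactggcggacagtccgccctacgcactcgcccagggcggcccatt
Mcm8: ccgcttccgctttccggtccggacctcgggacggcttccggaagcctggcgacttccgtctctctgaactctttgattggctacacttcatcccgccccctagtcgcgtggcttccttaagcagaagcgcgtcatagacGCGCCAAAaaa

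Checkpoint, homologous recombination and Fanconi genes rose in 24 of 28 (85.7%) and 0 fell (17 and 0 in p53- Rb- cells). Chek1, the S-phase checkpoint kinase, had 133.9, 134.2 and 132.8 in p53- arrays, 64.9, 87.4 and 51.1 in p53- Rb- arrays, and 21.1, 27.4 and 44.7 in WT arrays. The 3 groups were separate and the p53- arrays nearly equal (1.70 ± 0.19, adjusted p = 2.7e-06). Brca2, a homologous recombination gene, had 81.1, 70.6 and 120.9 in p53- arrays, 32.2, 58.7 and 35.9 in p53- Rb- arrays, and 17.2, 15.9 and 18.7 in WT arrays (1.66 ± 0.26, adjusted p = 7.58e-05). Brca1 rose by 1.24, Rad50, of the break-sensing complex, by 1.31, and the helicase Blm by 1.08. Xrcc6, the end-joining factor Ku70, did not pass (0.40, adjusted p = 0.0731).

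E2F factors and pocket proteins rose in 7 of 13 (6 rose and 1 fell in p53- Rb- cells). E2f7 and E2f8, repressors induced in S phase, rose by 0.98 and 0.91, Tfdp1, the dimer partner of E2F, by 0.71, and Rbl1, the pocket protein p107, by 0.69. E2f1 (0.06) and E2f4 (-0.31), a subunit of DREAM, did not pass. Of 19 G1 cyclins, kinases and CDK inhibitors, 7 rose (6 in p53- Rb- cells). Ccne2, cyclin E2, had 146.7, 99.3 and 151.9 in p53- arrays, 43.5, 61.3 and 33.4 in p53- Rb- arrays, and 31.3, 23.6 and 19.7 in WT arrays, the p53- arrays being clear of all others (1.85 ± 0.20, adjusted p = 1.32e-06). Cdkn2d, an inhibitor of Cdk4 and Cdk6, rose by 0.80. Cdk6 rose by 0.63, a call that was lost after centring, while Ccnd1 (0.13) and Cdk4 (0.04), which act together early in G1, did not pass. After centring 3 of the 19 rose and 1 fell, and the list median was -0.04 in place of 0.13.

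**Figure D2:**
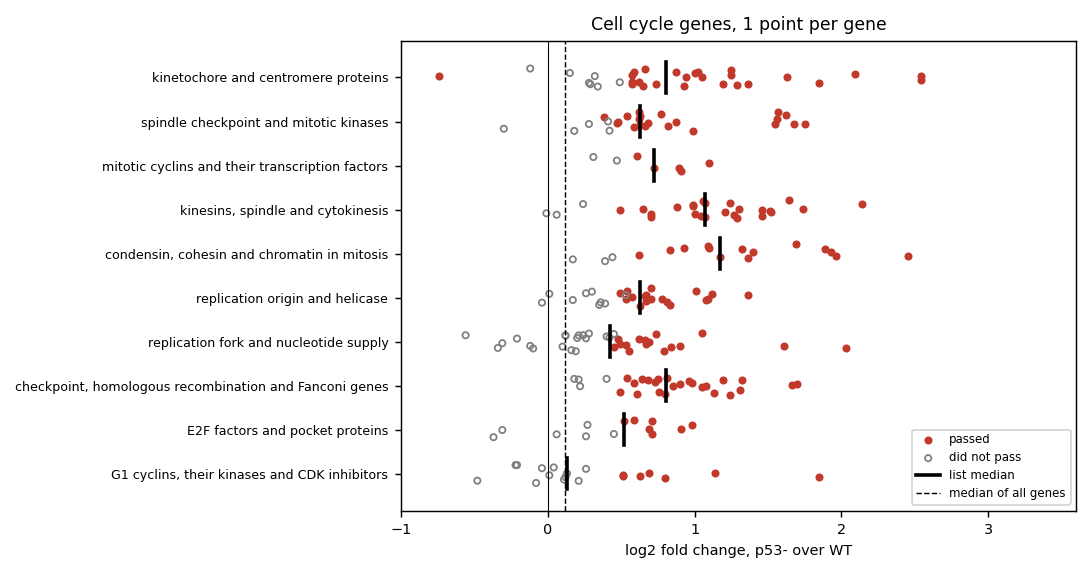
Log2 fold change, p53- over WT, of each gene in 10 cell cycle lists, filled where the gene passed, with the list median as a bar and the median of all genes (0.12) as a dashed line. Mitotic lists have medians from 0.63 to 1.17, and the G1 list (0.13) lies at the median of all genes.

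Genes of the nucleolus, the nuclear pore and splicing rose as well, while ribosomal protein genes did not. Nucleolar ribosome biogenesis genes rose in 25 of 42 (59.5%) and 0 fell (16 and 0 in p53- Rb- cells). Nop58, a core protein of box C/D particles, had 903.4, 703.6 and 968.1 in p53- arrays, 355.4, 423.8 and 288.9 in p53- Rb- arrays, and 304.7, 300.6 and 306.5 in WT arrays. Its p53- Rb- arrays overlapped WT and its p53- arrays did not (1.44 ± 0.18, adjusted p = 7.09e-06). Gnl3, nucleostemin, rose by 1.32, and nucleolin, Ncl, by 1.16, while Fbl, the methyltransferase fibrillarin, did not pass (0.01). Nuclear pore and import genes rose in 19 of 28 (10 in p53- Rb- cells), or in 10 after centring. Ranbp2, a filament protein of the pore, had 498.6, 456.2 and 539.9 in p53- arrays, 177.8, 204.6 and 104.6 in p53- Rb- arrays, and 126.6, 109.6 and 191.4 in WT arrays (1.73 ± 0.23, adjusted p = 1.16e-05). The p53- arrays were high and the other groups overlapped. Xpo1, the main export receptor, rose by 1.36, and Ran, the GTPase of transport, did not pass (-0.01). Splicing factors rose in 18 of 26 (8 in p53- Rb- cells), with Luc7l3 at 1.91 and Hnrnpm at 1.50, while Hnrnpk did not pass (0.13).

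Chaperonin subunits rose in 3 of 8 (37.5%, against 19.3% of all genes), namely Cct8, Cct6a and Cct2, or in 1 (Cct8) without p53- replicate 3. Of 25 cytosolic ribosomal protein genes, 0 rose and 1 fell in limma's fit, the faller being the p53 target Rps27l described above. The list's median was 0.08, and -0.09 after centring. With 64 in place of 16 added, 5 of them rose, and 4 did with array weights. Glycolysis genes had 2 of 15 that fell (13.3%, near the 9.71% of all genes) and 0 that rose (0 fell and 4 rose in p53- Rb- cells). Aldoc, an aldolase, had 46.4, 78.1 and 59.1 in p53- arrays, 261.6, 224.5 and 287.5 in p53- Rb- arrays, and 258.4, 182.5 and 202.0 in WT arrays. It fell by 1.58 ± 0.18 in p53- cells (adjusted p = 2.6e-06), with the other groups overlapping. The liver-type phosphofructokinase gene Pfkl fell by 0.47, a call that was lost without p53- replicate 1 or 3 or WT replicate 1 or 3. Cholesterol synthesis genes had 3 of 16 that fell (18.8%, against 9.71% of all genes), namely Mvd, Lss and the sterol sensor partner Insig1. The synthase Hmgcs1 was the 1 that rose (6.2%, against 19.3%). The rise of Hmgcs1 (0.58, adjusted p = 0.0309) was lost after centring and without p53- replicate 1 or 3 or WT replicate 1 or 2, and the fall of Insig1 (-0.62, adjusted p = 0.0222) without p53- replicate 1 or 3 or WT replicate 2. The number that fell was 7 after centring.

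Of 22 genes of the NRF2 antioxidant response 10 fell (45.5%) and 1 rose (5 and 0 in p53- Rb- cells), with a median of -0.33. Nqo1, a quinone reductase, had 51, 48.8 and 40.5 in p53- arrays, 64.4, 59.3 and 85.7 in p53- Rb- arrays, and 160.9, 122.3 and 171.9 in WT arrays. All arrays without p53 lay below all WT arrays (-1.41 ± 0.18 in p53- cells, adjusted p = 9.95e-06). Mgst1, a membrane glutathione transferase, fell by 1.75, Gsta4, which detoxifies lipid aldehydes, fell by 1.12, Gstm1 fell by 1.30, and Hmox1, heme oxygenase, fell by 1.12. Gclc, the catalytic subunit for glutathione synthesis, rose by 0.49, a call that was lost after centring and without p53- replicate 1 or 3 or WT replicate 2, and the peroxiredoxin Prdx1 (-0.21) and superoxide dismutase Sod1 (0.03) did not pass.

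Interferon-stimulated effectors rose in 16 of 28 (57.1%, against 19.3% of all genes) and 0 fell. In p53- Rb- cells 2 rose and 0 fell, against 10.8% and 3.75% of all genes. Most of these genes were dim: among the genes at or above the median level only 3 rose, and with 1 in place of 16 added 9 did. Rsad2, the antiviral enzyme viperin, had 93.8, 98.9 and 97.3 in p53- arrays, 30.6, 33.4 and 19.1 in p53- Rb- arrays, and 31.5, 42.1 and 32.1 in WT arrays. The p53- arrays were nearly equal and lay well above the other groups, which overlapped (1.14 ± 0.18, adjusted p = 8.78e-05). Ifit3, which binds foreign RNA caps with its relatives, had 86.1, 55.4 and 93.2 in p53- arrays, 40.3, 44.4 and 34.7 in p53- Rb- arrays, and 45.8, 26.4 and 12.5 in WT arrays (1.14 ± 0.22, adjusted p = 0.000516). Oasl2 rose by 1.09 and the immunity-related GTPase Iigp1 by 0.84, and Bst2, tetherin, did not pass (-0.30). Cxcl10, a chemokine that interferon induces, had 127.4, 174.4 and 127.8 in p53- arrays, 26, 36.8 and 16.8 in p53- Rb- arrays, and 49.6, 27.1 and 56 in WT arrays (1.42 ± 0.22, adjusted p = 7.53e-05). Ccl5 rose by 1.19.

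Of 23 sensors and transducers of interferon signals, 5 rose (21.7%, near the 19.3% of all genes) and 4 fell (17.4%, against 9.71%), with 3 and 0 in p53- Rb- cells. The double-stranded RNA kinase Eif2ak2 (1.11), the RNA sensor Ifih1 (0.85), the DNA sensor Cgas (0.79), Dhx58 and Tlr3 rose. The call of Tlr3 was lost after centring, and that of Ifih1 with 1 in place of 16 added. Of the 4 that fell, Sting1, the adaptor downstream of Cgas, had 224.0, 329.6 and 201.3 in p53- arrays and 505.8, 327.6 and 392.3 in WT arrays, so the groups overlapped (-0.67 ± 0.19, adjusted p = 0.00977). The factor Irf3 fell by 0.55 and the receptor subunit Ifnar2 fell by 0.76. The number that fell was 8 after centring, 0 without p53- replicate 3, and 2 without p53- replicate 1, WT replicate 1 or WT replicate 2. Antigen presentation genes had 2 of 15 that fell (13.3%, near the 9.71% of all genes) and 0 that rose. The fallers were the class II gene H2-Ab1 (-0.84) and the peptide loader Tapbp, while B2m, the class I light chain, did not pass (-0.11). Here 5 fell after centring, 0 with 1 in place of 16 added, and 1 fell without p53- replicate 1, p53- replicate 3, WT replicate 1 or WT replicate 2.

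Several defence genes of epithelia and phagocytes were among the largest falls in p53- cells. Of 26 acute-phase, complement and antimicrobial genes, 13 fell (against 9.71% of all genes) and 1 rose, with 10 and 0 in p53- Rb- cells. The list median was -0.43, 12 members did not pass, and 7 fell among genes at or above the median level. S100a8 and S100a9 encode the subunits of the zinc-binding protein calprotectin. S100a8 had 801.3, 353.2 and 304.9 in p53- arrays, 161.1, 188.4 and 179.1 in p53- Rb- arrays, and 3088, 2895 and 2700 in WT arrays. The WT arrays were far above the others and p53- replicate 1 was the highest without p53 (-2.66 ± 0.24, adjusted p = 1.45e-07), and S100a9 fell by 2.85 with the same order of groups. Saa1, an acute-phase apolipoprotein, had 7.2, 4.41 and 7.93 in p53- arrays, 2.53, 6.07 and 4.91 in p53- Rb- arrays, and 475.7, 397.7 and 364.4 in WT arrays. Its 6 values without p53 were all under the constant of 16, so that its change of -4.25 ± 0.17 (adjusted p = 2.06e-13) is set by that constant. Its relative Saa3 fell by 2.70.

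Ltf, the iron-binding lactoferrin, had 98.3, 77.8 and 63.8 in p53- arrays, 97.4, 82.8 and 73.6 in p53- Rb- arrays, and 742.8, 483.0 and 606.6 in WT arrays (-2.70 ± 0.19, adjusted p = 1.59e-09). Arrays without p53 were alike in both groups and below WT. Defb14, a beta-defensin, had 110.9, 173.7 and 116.7 in p53- arrays, 124.6, 124.9 and 142.2 in p53- Rb- arrays, and 1160, 1007 and 948.2 in WT arrays (-2.83 ± 0.17, adjusted p = 1.68e-10). The peptidoglycan receptor Pglyrp1 fell by 2.80 and the chitinase-like gene Chil1 fell by 2.40, both also low in every p53- Rb- array. Hp, haptoglobin, differed from these, with 70.7, 40.7 and 39.3 in p53- arrays but 369.0, 302.8 and 314.6 in p53- Rb- arrays, beside 344.8, 333.0 and 394.4 in WT arrays. It fell by 2.52 ± 0.19 in p53- cells (adjusted p = 6.56e-09), and its p53- Rb- arrays overlapped WT. Lcn2, the siderophore-binding lipocalin of stressed epithelia, did not pass (-0.25), and Reg3g, a lectin, rose by 1.08 from a dim level, a call that was lost without p53- replicate 1.

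Of 19 chemokines 11 fell (57.9%) and 2 rose, Cxcl10 and Ccl5 above (8 and 0 in p53- Rb- cells). Cxcl2, a neutrophil attractant, had 374.9, 678.7 and 313.3 in p53- arrays, 139.6, 155.4 and 180.1 in p53- Rb- arrays, and 1254, 1781 and 1726 in WT arrays. The groups were separate, with p53- Rb- lowest (-1.82 ± 0.23 in p53- cells, adjusted p = 8.6e-06). Its relative Cxcl1 fell by 1.15, Cxcl14, of resting epithelium, fell by 1.61, and Ccl9 fell by 2.82, while Ccl2, the monocyte attractant, did not pass (-0.11). Of 24 cytokines and their receptors 8 fell and 2 rose, with 5 that fell without p53- replicate 3. Csf3, the granulocyte factor G-CSF, had 424.0, 683.2 and 251.8 in p53- arrays, 165.5, 147.7 and 175.8 in p53- Rb- arrays, and 1803, 2098 and 1898 in WT arrays (-2.16 ± 0.25, adjusted p = 3.4e-06). Tnf fell by 1.64 and Il1rn, the interleukin-1 receptor antagonist, by 1.10. Against these, Tslp, an epithelial alarmin, had 99.2, 217.6 and 100.7 in p53- arrays, 57.7, 66.5 and 91.1 in p53- Rb- arrays, and 15.7, 22.9 and 5.7 in WT arrays, higher in every array without p53 (2.29 ± 0.25 in p53- cells, adjusted p = 1.8e-06). Csf2, GM-CSF, rose by 0.69, a call that was lost without p53- replicate 1 or 3 or WT replicate 1.

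**Figure D3:**
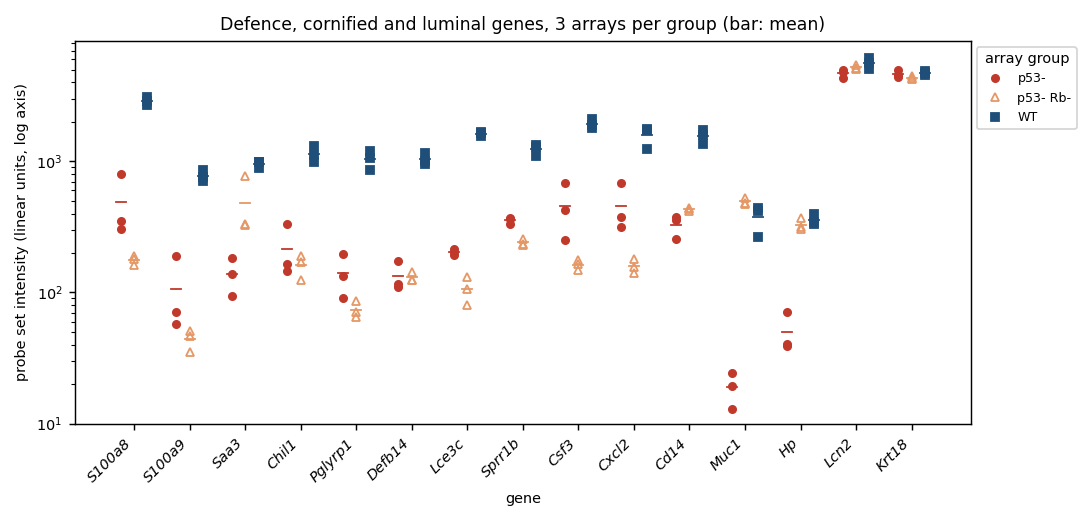
Probe set intensity (log axis) of 15 defence, cornified and luminal genes, with 1 point per array, 3 arrays each for p53-, p53- Rb- and WT, and a bar at each group's mean. The p53- Rb- arrays lie low with the p53- arrays in genes such as Defb14 and Lce3c and with the WT arrays in Muc1 and Hp, and Lcn2 and Krt18 did not pass.

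The labelled cell type was borne out by its markers, since Krt8, Krt18, Krt5, Krt14, Epcam and Cdh1 were bright in all arrays. Krt8, a simple epithelial keratin, had 3450, 3490 and 3647 in p53- arrays and 3069, 3094 and 3212 in WT arrays, higher in every p53- array, and did not pass (0.17 ± 0.32, adjusted p = 0.715), nor did Krt18 (-0.02) and Krt19 (0.08). Of 25 luminal keratins, factors and receptors 8 fell and 1 rose (3 and 1 in p53- Rb- cells). Kit, the receptor of Kitl and a mark of luminal progenitors, had 33.9, 42.3 and 38.4 in p53- arrays, 61.4, 71.1 and 66.2 in p53- Rb- arrays, and 249.7, 194.7 and 161.7 in WT arrays. All 3 groups were separate (-1.99 ± 0.19 in p53- cells, adjusted p = 2.04e-07), the receptor thus falling where its ligand rose. Elf5, the alveolar ETS factor, fell by 1.47 and Ehf, another epithelial ETS factor, fell by 1.27. Cd14, a lipopolysaccharide receptor of luminal cells and macrophages, fell by 2.21, and Wnt4, a ligand that progesterone induces, rose by 0.72. That rise rested on 1 probe set, since the mean of the gene's probe sets changed by 0.04 (adjusted p = 0.875), and it was also lost without p53- replicate 3 or WT replicate 3.

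Of 18 secretory and milk genes 5 fell (27.8%, against 9.71% of all genes) and 3 rose (16.7%, near 19.3%), with 6 and 1 in p53- Rb- cells. Muc1, the apical mucin, had 19.4, 24.5 and 12.8 in p53- arrays but 528.8, 484.7 and 477.0 in p53- Rb- arrays, beside 439.0, 264.8 and 419.6 in WT arrays. Only the p53- arrays were low (-3.47 ± 0.19, adjusted p = 7.21e-11), and the gene did not pass in p53- Rb- cells (0.42, adjusted p = 0.143). The casein gene Csn1s1 had 17.8, 6.78 and 5.95 in p53- arrays, 6.59, 3.96 and 9.89 in p53- Rb- arrays, and 262.4, 164.1 and 161.1 in WT arrays, low in every array without p53 (-3.01 ± 0.20 in p53- cells, adjusted p = 5.92e-10). Its relative Csn3 moved the other way, with 2435, 2827 and 2143 in p53- arrays, 2665, 2411 and 3739 in p53- Rb- arrays, and 1316, 1494 and 1081 in WT arrays (0.92 ± 0.19, adjusted p = 0.000886). Csn2, beta-casein, did not pass (0.02).

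Of 27 basal and myoepithelial genes 5 fell (18.5%, against 9.71% of all genes) and 3 rose (11.1%, against 19.3%), with 3 and 6 in p53- Rb- cells. Igfbp5, an IGF-binding protein, fell by 1.64 and the keratin Krt6a fell by 1.03, while the integrin Itgb1 rose by 0.79, vimentin, Vim, by 0.65 and the factor Snai2 by 0.71. The number that fell was 1 with 1 in place of 16 added, where Krt6a too lost its call (adjusted p = 0.263), 10 after centring, 2 without p53- replicate 1, and 3 without p53- replicate 3 or WT replicate 2. Cornified envelope and desmosome genes, which build the barrier of stratified epithelia, had 9 of 23 members that fell and 0 that rose (9 and 0 in p53- Rb- cells). Lce3c, a late cornified envelope gene, had 205.1, 192.6 and 214.1 in p53- arrays, 130.2, 105.8 and 80.5 in p53- Rb- arrays, and 1647, 1677 and 1573 in WT arrays. Replicates lay close together and no groups overlapped (-2.91 ± 0.17 in p53- cells, adjusted p = 1.64e-10). Sprr1b, a cross-linked envelope precursor, had 331.8, 370.5 and 363.6 in p53- arrays, 234.8, 229.0 and 258.0 in p53- Rb- arrays, and 1284, 1333 and 1097 in WT arrays (-1.75 ± 0.17, adjusted p = 3.72e-07). Tgm1, the transglutaminase that cross-links it, fell by 1.43 and Sprr1a fell by 1.40, while the desmosome genes Dsp (0.08) and Jup (-0.42) did not pass.

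Of 33 mesenchymal and matrix genes 10 fell (30.3%) and 7 rose (21.2%, near the 19.3% of all genes) in p53- cells, or 15 and 3 after centring. In p53- Rb- cells 19 rose and 0 fell. N-cadherin, Cdh2, had 838.8, 902.4 and 848.2 in p53- arrays, 896.0, 1000 and 780.5 in p53- Rb- arrays, and 319.6, 432.4 and 438.6 in WT arrays, higher in both groups without p53 (1.10 ± 0.18 in p53- cells, adjusted p = 9.37e-05). Mmp2, a gelatinase, had 247.6, 269.1 and 242.6 in p53- arrays, 563.2, 624.4 and 887.0 in p53- Rb- arrays, and 503.9, 529.1 and 553.1 in WT arrays, lowest in p53- cells (-1.02 ± 0.17, adjusted p = 0.000168). Col6a2, a collagen, fell by 1.46, and the factor Zeb1 rose by 0.76. Of 29 growth factors and ligands 7 fell (24.1%, against 9.71% of all genes) and 4 rose (13.8%, against 19.3%), with a median change of -0.24. Of those that rose, Fgf7, which acts on epithelium, changed by 1.54, the activin subunit Inhba by 0.92 and the Notch ligand Jag1 by 0.78. Of those that fell, the bone morphogenetic protein Bmp2 changed by -0.93. Of 21 immediate early genes 4 fell and 3 rose, or 8 fell after centring or without p53- replicate 2. Fos fell by 1.27 and Egr1 by 1.45, while Klf2 rose by 1.13 and Klf6 by 0.91.

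Markers of other cell types moved with several of these lists. Of 23 leukocyte markers 9 fell and 2 rose (7 and 0 in p53- Rb- cells), and the summed intensity of 8 markers ran from 328.3 to 410.3 in p53- arrays, from 372.5 to 435.3 in p53- Rb- arrays and from 740.7 to 786.5 in WT arrays. Most of that difference lay in Lyz2, lysozyme of macrophages and some epithelia, with 12.7, 25.7 and 15.3 in p53- arrays, 62.9, 58.1 and 110.9 in p53- Rb- arrays, and 315.9, 222.8 and 327.9 in WT arrays (-3.17 ± 0.20, adjusted p = 5.92e-10). The p53- values of Lyz2 lay near or under the constant added before the logarithm, which makes that change smaller. Ptprc, the pan-leukocyte antigen CD45, was the reverse and dim, with 54.5, 22.7 and 52.2 in p53- arrays and 23.5, 16.1 and 19.1 in WT arrays (0.69 ± 0.23, adjusted p = 0.0283). Its groups overlapped, and the call was lost under 7 of 15 alternatives. Calprotectin and Cd14 are counted in this list too, so the lists of defence genes and leukocytes overlap. In such bulk samples, fewer cells of a type and less RNA per cell cannot be told apart, and the part of other cells in the fall of defence genes was not tested.

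Of 20 fibroblast markers 8 fell and 1 rose in p53- cells, and 10 rose and 0 fell in p53- Rb- cells. The summed intensity of 6 fibroblast markers was 2662 to 2766 in p53- arrays, 4892 to 6172 in p53- Rb- arrays and 2978 to 3451 in WT arrays, and its part in the matrix genes above was not tested. Mfap4, a microfibril protein gene, had 27.3, 17.5 and 32.9 in p53- arrays, 285.6, 252.9 and 531.3 in p53- Rb- arrays, and 162.3, 96.3 and 158.1 in WT arrays (-1.87 ± 0.24 in p53- cells, adjusted p = 7.42e-06). Of 18 endothelial markers 6 fell and 2 rose (Kdr and Flt1, where Flt1 was lost after centring and without p53- replicate 3), with a summed intensity of 4 markers of 167.1 to 231.2 in p53- arrays, 323.5 to 356.4 in p53- Rb- arrays and 265.3 to 406.5 in WT arrays. Pecam1 fell by 1.06. Adipocyte markers fell in 2 of 10 (20.0%, against 9.71% of all genes), with summed intensities of 236.7 to 347.6, 270.7 to 369.3 and 337.1 to 523.0 in p53-, p53- Rb- and WT arrays. The sums of 6 epithelial markers were 14293 to 15453 in p53- arrays, 14072 to 15870 in p53- Rb- arrays and 15501 to 16038 in WT arrays, and those of 5 basal markers 4789 to 5884, 7500 to 7627 and 6671 to 7158 in the same order of groups. None of these markers was under 16 in all 6 p53- and WT arrays.

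**Figure D4:**
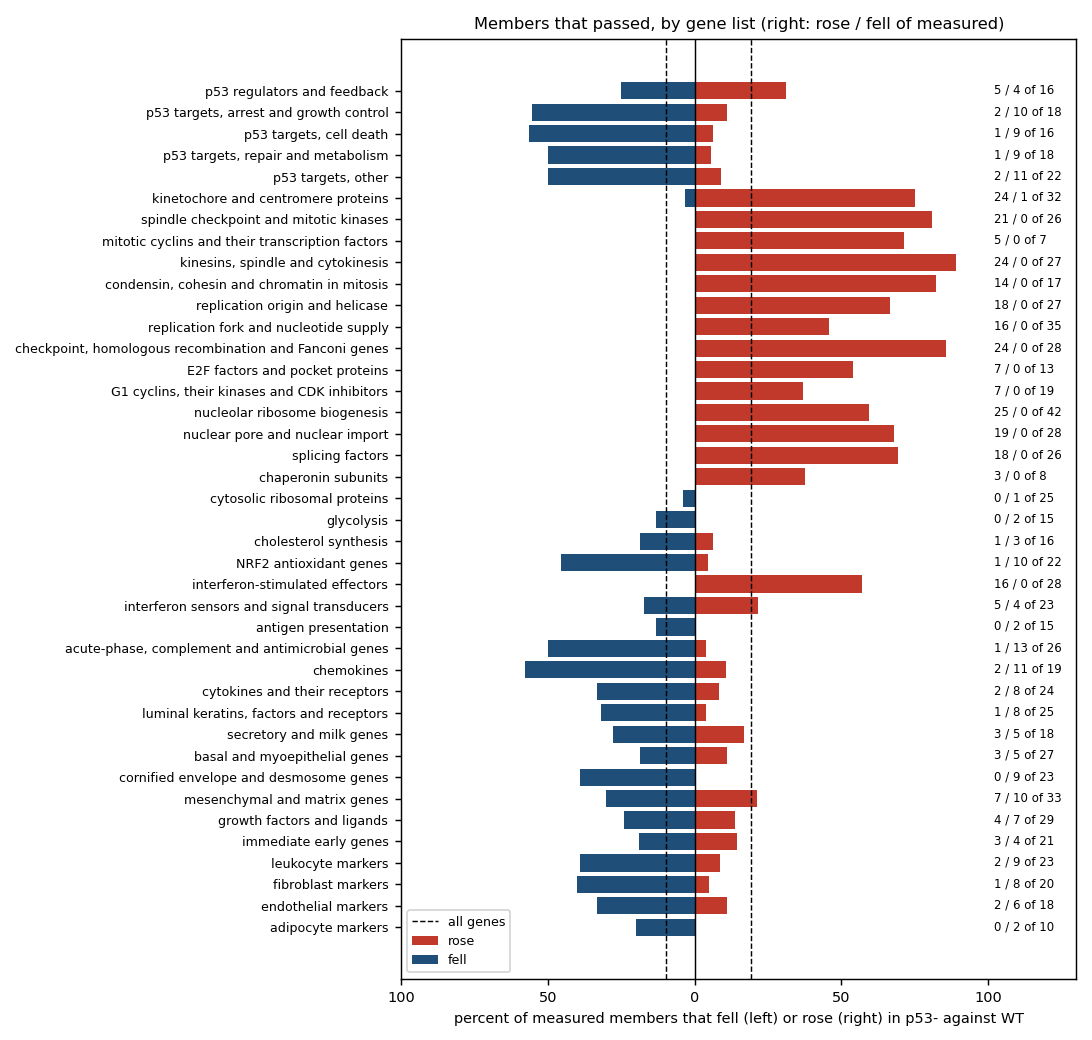
Percent of the measured members of each of 40 gene lists that rose (to the right) or fell (to the left) in p53- against WT, with counts at the right and dashed lines at the share of all genes (19.3% and 9.71%). Mitotic lists reach 71.4% to 88.9% that rose, and p53 target lists up to 56.2% that fell.

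Several genes with the largest changes at or above the median level were in none of the gene lists above. Dgkk, a diacylglycerol kinase gene, had 335.6, 378.8 and 454.9 in p53- arrays, 402.9, 451.9 and 298.1 in p53- Rb- arrays, and 31.8, 35.8 and 23.3 in WT arrays. It had the highest change by the rule for named genes (3.13 ± 0.20, adjusted p = 6.41e-10), and was high in all p53- and p53- Rb- arrays. Esf1, a pre-ribosomal RNA processing gene that is close in role to the nucleolar list but not in it, had 402.9, 379.3 and 425.0 in p53- arrays, 89.7, 114.1 and 64.6 in p53- Rb- arrays, and 56.3, 40.1 and 71.9 in WT arrays. It was high in p53- cells alone (2.56 ± 0.19, adjusted p = 6.3e-09). The chromatin proteins Dek and Hmgn5 rose by 2.22 and 2.16, the bromodomain protein Phip by 2.29, the kinase Rock1, which drives actomyosin contraction, by 2.21, the ubiquitin chain partner Ube2v2 by 2.17, and Mir100hg, a host transcript of microRNAs, by 2.40. At the other end, Slc28a3, a concentrative nucleoside transporter, had 91, 75.6 and 57.6 in p53- arrays, 85.9, 74.8 and 82.6 in p53- Rb- arrays, and 601.7, 576.8 and 720.4 in WT arrays. Both groups without p53 overlapped far below WT (-2.85 ± 0.16 in p53- cells, adjusted p = 1.06e-10). Fxyd3, a regulator of the sodium pump, fell by 2.49.

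Changes also ran with the genomic span of the gene. Among protein-coding genes at or above the median level, the shortest of 5 bins, 0.165 to 7.34 kb, had 9.7% that rose and 22.9% that fell, with a median change of -0.12. The longest, 65.2 to 2390 kb, had 33.6% that rose and 8.6% that fell, with a median of 0.24. Mitotic genes longer than 22.3 kb had a median of 1.10 and 89.8% that rose, and the shorter ones 0.64 and 70.0%. In p53- Rb- cells the medians of the longer and the shorter mitotic genes were 0.74 and 0.76, while those of the 5 bins of all such genes, from short to long, were 0.00, 0.12, 0.17, 0.18 and 0.19. Spans were taken from RefSeq (GRCm38.p6), transcript lengths were not used here, and the part of RNA quality or amplification in this pattern was not tested. By level, 14.2% of genes in the dimmest of 5 bins rose and 1.8% fell, and 24.6% rose and 15.4% fell in the brightest.

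**Figure D5:**
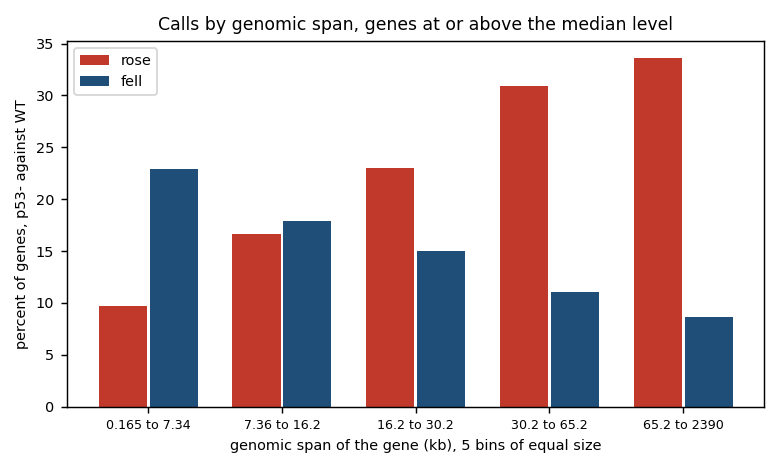
Percent of protein-coding genes at or above the median level that rose or fell in p53- against WT, in 5 bins of genomic span (kb). The share that rose is 9.7% in the shortest bin and 33.6% in the longest, and the share that fell is 22.9% and 8.6%.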

How the data were processed

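RNA from proliferating cultures was amplified with the WT-Ovation Pico kit, labelled with biotin and hybridised to Affymetrix mouse arrays, 1 per sample, per the labels. The deposited values are linear probe set intensities. The authors' tool was Expression Console 1.1 of Affymetrix according to the submitters' processing notes, while neither how probes were summarised nor whether arrays were scaled is given in the sources used here, and no detection calls were used. The number of arrays limits the precision. Of 35556 probe sets, 21789 had 1 gene symbol in the platform annotation, 1621 had several and 12146 were not listed. The deposited intensities were taken to log2(intensity + 16), a scale that understates changes of dim genes. limma 3.58.1 (R 4.3.3) fitted 5 group means to all 15 arrays and tested p53- minus WT and p53- Rb- minus WT, 2-sided, with Benjamini-Hochberg adjustment over 19938 genes. The script was tested on simulated data.

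The 40 gene lists held 963 entries, 887 of them measured, and like the comparison itself were chosen with earlier results of these data known, so their counts are a description. Named genes were Mdm2, Ccng1, Zmat3, Rb1 and Myc; the 12 highest and 12 lowest changes among passing genes no dimmer than the median gene whose groups do not overlap; and, per list, up to 6 members with the smallest p, up to 3 that moved against the list and up to 3 bright ones that did not pass. Cell markers, genes of lists of at most 10, and Cd80, Trp73 and Zfp365, which hold a p53 element and were chosen after their values were seen, were also named. Promoters came from RefSeq (GRCm38.p6), as did genomic spans. Same-numbered p53- and WT arrays deviated together with correlations of 0.111, -0.120 and 0.025, so replicate numbers were not taken as pairs. Alternatives were other added constants, centring, quantile normalization, bright genes only, the 6 arrays only, a replicate block, array weights, a trended prior, means over probe sets, and leaving out each array.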

Additional observations from a re-analysis of the deposited data

Results flagged for a closer look

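Among the 12146 probe sets that the platform annotation does not list, which no comparison above used, 2068 passed in p53- against WT cells. Of these, 1709 were higher and 359 lower in p53- cells (17% of the 12146 in all). Of the 1621 probe sets with several gene symbols, 417 were higher and 73 lower (30.2% in all). Both kinds were fitted together, apart from the genes, with adjustment over these probe sets and not over the 19938 genes. Of those genes 5777 passed, 19.3% being higher and 9.71% lower.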

How the results depend on the processing

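The counts of 3842 genes that rose and 1935 that fell were 2311 and 3248 with each array centred on its median, and 2536 rose among the 9969 genes at or above the median level. Leaving out each array in turn gave 2381 to 3863 that rose and 1086 to 2231 that fell, both lowest without p53- replicate 3 and highest without p53- replicate 2. The 811 genes that rose at least 2-fold became 1751 with 1 added in place of 16, 278 with 64 added and 475 after centring, and 650 to 998 with 1 array left out. The 325 that fell at least 2-fold became 161 with 64 added and 593 after centring, and 269 to 534 with 1 array left out, 534 of them without p53- replicate 2. With the replicate number as a block, 3932 genes rose and 1967 fell, and of the named genes that block ended the call of Krt5 alone. Of 180 named genes that passed, 153 passed under every alternative that tested them and 0 reversed. The calls lost most often without 1 array were lost without p53- replicate 3, for 19 genes, and 12 calls were lost with 1 added (Cenpm, Csf2, H2-Ab1, Hmgcs1, Ifih1, Irf3, Krt5, Krt6a, Ptprc, Ptprv, Tapbp and Trp63). Krt5 (-0.48, adjusted p = 0.0476 in limma's fit) lost its call under 9 of 16 alternatives. The causes of these shifts were not tested. 3 arrays per group limit the precision of every value.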

Other observations

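Some non-coding transcripts outside the lists, chosen after their values were seen, differed in p53- cells alone. Xist, the RNA that coats the inactive X chromosome in female cells, had 1275, 1197 and 1654 in p53- arrays, 460.0, 613.9 and 316.8 in p53- Rb- arrays, and 288.4, 341.6 and 425.9 in WT arrays. It rose by 1.92 ± 0.25 in p53- cells (limma, adjusted p = 9.47e-06), and its p53- Rb- arrays overlapped WT. Mir17hg, the host transcript of a microRNA cluster that Myc and E2F factors activate, had 48.5, 35.5 and 49.7 in p53- arrays, 11, 13.2 and 6.81 in p53- Rb- arrays, and 13.8, 15.2 and 2.6 in WT arrays (1.22 ± 0.22, adjusted p = 0.000303).

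Of the miR-34 genes, which p53 is known to activate, none fell in p53- cells. Mir34a had 6.02, 13.6 and 6.53 in p53- arrays and 4.09, 2.77 and 0.427 in WT arrays, all under the added constant (0.41 ± 0.16, adjusted p = 0.0518). Mir34c had 81, 42.6 and 77.1 in p53- arrays and 33.1, 39.7 and 41.5 in WT arrays. It rose, with p53- replicate 2 close to the WT arrays (0.58 ± 0.19, adjusted p = 0.0279). Mir34b did not pass (-0.16, adjusted p = 0.6).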
